A study of Homo sapiens with 6 samples.

Results

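The RNAs described here are the long non-coding RNA genes whose symbol ends in -AS and 1 digit, the naming form for a transcript read from the strand opposite a named gene, and which held at least 60 counts summed over all 6 libraries. Of 53715 genes in the deposited count table, 736 symbols had this form and 222 reached the minimum. Of the other 514, 147 had no count in any library. They were selected on the summed count alone, which takes no account of which group the counts came from. A scarce member can therefore reach the minimum only through the group where it is high, as SLC7A11-AS1 did through ASO-L1 and TMLHE-AS1 through ASO-Ctr. Just inside the minimum lay LIMD1-AS1 and MCCC1-AS1 with 61 counts each, and just outside lay KIF25-AS1 and IPO9-AS1 with 59 counts each and DOCK9-AS2 with 57. All 222 passed the filter on low counts and entered the test, beside 26 of the symbols below the minimum. The name is a naming form and not a measurement: the GENCODE release 29 annotation held 219 of the 222 and gave 154 of them the type antisense, 29 processed transcript, 25 lincRNA and 5 protein coding.

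H9 cells were used, an established line of human embryonic stem cells, in the primed state that resembles the post-implantation epiblast. They were transfected with 1 of 3 oligonucleotides carrying the 6-FAM dye at 25 nM: the control ASO-Ctr, an antisense oligo with no target, sO-L1, an oligo of the sense strand of LINE1, or ASO-L1, an antisense oligo against LINE1. LINE1 is a family of mobile elements present in very many genomic copies. All 3 groups also received 0.7 uM trans-ISRIB, which blocks the integrated stress response, 5 uM emricasan, which blocks caspases, and 10 uM of the ROCK inhibitor Y-27632, all withdrawn after 24 h. Dye-positive cells were collected by sorting at 48 h, and poly(A) RNA was sequenced with a directional kit. The labels name either RSeT or mTeSR as the medium after transfection, and which one applied was not settled. With 2 libraries in each group, the labels do not say whether these came from separate cultures. The p-values therefore cannot be taken to measure the spread between cultures. In the fit used here they rest on the spread of these libraries after a difference between replicate numbers common to all groups is taken out. Most of that estimate of spread is shared across genes (2 residual degrees of freedom per gene, median prior 44.8).

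Antisense long non-coding RNAs are transcribed from the strand opposite a protein-coding gene, the sense gene. Many start close to the sense gene's own start and run away from it, from a promoter region that fires in both directions, and others cross its body. Some act on the neighbouring gene or on other targets, some are hosts whose introns release small nucleolar RNAs (snoRNAs, guides for the modification of ribosomal RNA), and for many no function is established. In GENCODE release 29 (GRCh38), the start of 139 members lay within 1 kb of the start of the sense gene on the opposite strand. A further 77 overlapped the sense gene with starts farther apart, 2 did not overlap it, 1 lay on the same strand and 3 could not be matched. Exons of 153 members overlapped exons of the sense gene, and those of 66 did not. The strand setting of the authors' counting is not stated. For the 153, reads of the antisense RNA and of its sense gene therefore cannot be told apart with certainty. Among them are ATP6V0E2-AS1 (864 shared exon bases), FEZF1-AS1 (611), VIM-AS1 (641) and DHRS4-AS1 (331), described below.

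The start regions of 4 members described below are shown because they differ in layout and in the short motifs they hold. They were chosen after the values were seen and do not stand for the members as a whole. Each is the 300 bases from 250 before to 50 after the RefSeq start (build GRCh38.p14), read 5′ to 3′ on the member's own strand, with motif matches in capitals. The motifs searched on both strands were the TATA box (TATAAA), the cyclic AMP response element CRE (TGACGTCA), the C/EBP-ATF response element CARE (TGATGNAAT) and the antioxidant response element ARE (TGAC, any 3 bases, then GCA). The CRE reads the same on both strands, and a match is a description of the letters, not evidence of binding.
SOX21-AS1, chr13:94712466-94712765, plus strand: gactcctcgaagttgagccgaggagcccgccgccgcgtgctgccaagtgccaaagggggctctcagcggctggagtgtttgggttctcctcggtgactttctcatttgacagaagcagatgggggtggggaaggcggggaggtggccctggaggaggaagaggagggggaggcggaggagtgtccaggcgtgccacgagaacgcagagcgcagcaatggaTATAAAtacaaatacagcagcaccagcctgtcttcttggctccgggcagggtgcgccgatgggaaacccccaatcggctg
SETD5-AS1, chr3:9396574-9396873, minus strand: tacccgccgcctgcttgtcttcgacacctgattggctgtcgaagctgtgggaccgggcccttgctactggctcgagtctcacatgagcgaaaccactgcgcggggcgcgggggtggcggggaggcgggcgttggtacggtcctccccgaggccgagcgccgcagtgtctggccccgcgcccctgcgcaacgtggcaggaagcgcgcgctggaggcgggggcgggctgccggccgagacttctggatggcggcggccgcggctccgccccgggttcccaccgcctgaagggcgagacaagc
GABPB1-AS1, chr15:50353924-50354223, plus strand: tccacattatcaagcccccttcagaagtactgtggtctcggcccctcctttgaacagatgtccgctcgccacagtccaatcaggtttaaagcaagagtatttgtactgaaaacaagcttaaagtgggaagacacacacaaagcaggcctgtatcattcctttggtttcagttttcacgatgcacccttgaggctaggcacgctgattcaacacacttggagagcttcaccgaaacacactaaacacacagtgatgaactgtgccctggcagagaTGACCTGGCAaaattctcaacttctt
PTPRG-AS1, chr3:62318898-62319197, minus strand: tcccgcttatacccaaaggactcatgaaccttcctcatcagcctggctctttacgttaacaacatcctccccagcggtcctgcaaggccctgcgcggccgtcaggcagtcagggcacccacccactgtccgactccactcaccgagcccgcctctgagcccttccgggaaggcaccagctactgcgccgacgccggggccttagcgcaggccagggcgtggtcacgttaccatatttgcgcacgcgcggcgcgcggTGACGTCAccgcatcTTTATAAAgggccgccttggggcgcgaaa
The window of SOX21-AS1 held a TATA match on the plus strand starting 30 bases before the RefSeq start, and it shared 270 of its bases with the window of SOX21, whose start lay 171 bases away on the other strand. The window of SETD5-AS1 held none of the 4 motifs. That of GABPB1-AS1 held 1 ARE match starting at base 25, where the RefSeq start itself is base 1. The window of PTPRG-AS1 held a CRE match starting at base 7, counted in the same way, and overlapping TATA matches on both strands farther on.

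Among the 147 members with a RefSeq window, TATA matches stood in 10 (6.803%), against 11.53% of all 35116 windows. ARE matches stood in 7 (4.762%, against 3.184%), CRE matches in 3 (2.041%, against 1.848%) and CARE matches in 0 (against 0.991%). The 3 with a CRE match were LENG8-AS1, LMCD1-AS1 and PTPRG-AS1.

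The antisense RNAs were scarce next to other genes. Counts were scaled to library size with edgeR's TMM factors (CPM), and the median member had a mean of 1.20 CPM over the 6 libraries, against 10.89 for all 19156 genes tested. Of the 222, 98 averaged under 1 CPM, 95 between 1 and 10, and 29 at least 10. The most abundant, C17orf76-AS1, the host of SNORD49A, SNORD49B and SNORD65 whose present symbol is SNHG29, averaged 273.6 CPM. Together the members held 1439 and 1459 CPM with ASO-Ctr, 1482 and 1459 with sO-L1, and 1672 and 1583 with ASO-L1. Both ASO-L1 libraries lay above the other 4. Without C17orf76-AS1 the sums were 1172 to 1220 CPM in the 4 other libraries and 1327 and 1298 in ASO-L1. All but 1 member had a count in every library.

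Library totals ran from 18897936 to 67192937 counts, so that 3 counts, the limit that a count of 0 allows, stood for 0.159 CPM in ASO-Ctr replicate 1 and 0.0446 CPM in ASO-Ctr replicate 2. These limits cover counting error only. Mitochondrial genes held 3.79% to 4.24% of counts. The 8 pluripotency markers, among them POU5F1, NANOG and DNMT3B, summed to between 6181 and 6512 CPM in every library. Within that sum both ASO-L1 libraries were the lowest for NANOG (70.4 and 73.9 CPM, against 79.1 to 85.8) and DNMT3B (1337 and 1473, against 1560 to 1720). They were the highest for SOX2 (502 and 471 CPM, against 402 to 447), ZIC2 (513 and 518, against 425 to 461) and, narrowly, SALL4. The 3 neuroectoderm markers stayed at or below 4.73 CPM in sum, the 4 mesoderm markers at or below 2.35 (HAND1 at 0 throughout) and the 4 trophoblast markers between 9.63 and 11.1. The 4 endoderm markers summed to 3.32 and 4.07 CPM in ASO-L1 and 4.88 to 6.23 elsewhere. The 4 fibroblast markers summed to 72.5 to 77.2 CPM in ASO-L1 and 43.7 to 55.3 elsewhere, nearly all of it COL1A1, with the fibroblast gene DCN at 0 in 5 libraries and at 0.0216 CPM in the sixth. The endoderm and fibroblast sums and these 5 pluripotency genes moved with ASO-L1, and their part in the results below was not tested.

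The comparison of ASO-L1 with sO-L1 sets the antisense oligo against its sense-strand partner. More antisense RNAs rose in ASO-L1 than fell: 33 of 222 (14.9%) were higher and 8 (3.6%) lower at an adjusted p under 0.05 in edgeR's quasi-likelihood test, which was fitted over all genes with the replicate number as a block. Over all genes tested the shares were 10.3% higher and 12.7% lower. The median log2 fold change of the members was 0.07, against 0.00 for all genes, and 130 (58.6%) were above 0. That median rested on single libraries: it was 0.01 without ASO-L1 replicate 1, 0.04 without sO-L1 replicate 1, and 0.16 when replicate 2 of either group was left out. The rises were mostly modest, and the better measured RNAs held most of the calls: 11 of the 29 members at 10 CPM or more rose, 18 of the 95 between 1 and 10 CPM and 4 of the 98 below. The share of all genes called at these levels was not computed, so these counts have no background beside them. Among those that rose were RNAs beside a neural transcription factor gene (SOX21-AS1, FEZF1-AS1), snoRNA hosts (C17orf76-AS1, EPB41L4A-AS1), and RNAs beside genes of chromatin and transcription (SETD5-AS1, MORF4L2-AS1, GABPB1-AS1, ZNF674-AS1). These groups were picked from the members that rose, and all members beside such genes were not counted. KDM4A-AS1 (-0.03), KDM5B-AS1 (0.36) and MORC2-AS1 (0.07), also beside chromatin genes, did not pass the test. The numbers of members called depended on the block and on single libraries. Without the block 5 members remained higher (SOX21-AS1, SETD5-AS1, ZNF674-AS1, MORF4L2-AS1 and GABPB1-AS1) and 0 lower, and 1.84% of all genes were called. At an unadjusted p under 0.05 that fit held 39 of the 222 members, against 3167 of all 19156 genes. With the block, leaving out sO-L1 replicate 1 gave 14 higher and 2 lower, leaving out sO-L1 replicate 2 gave 20 and 2, and leaving out ASO-L1 replicate 1 gave 16 and 2. Leaving out ASO-L1 replicate 2 gave 4 lower. DESeq2 called 17 higher and 1 lower.

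**Figure D1:**
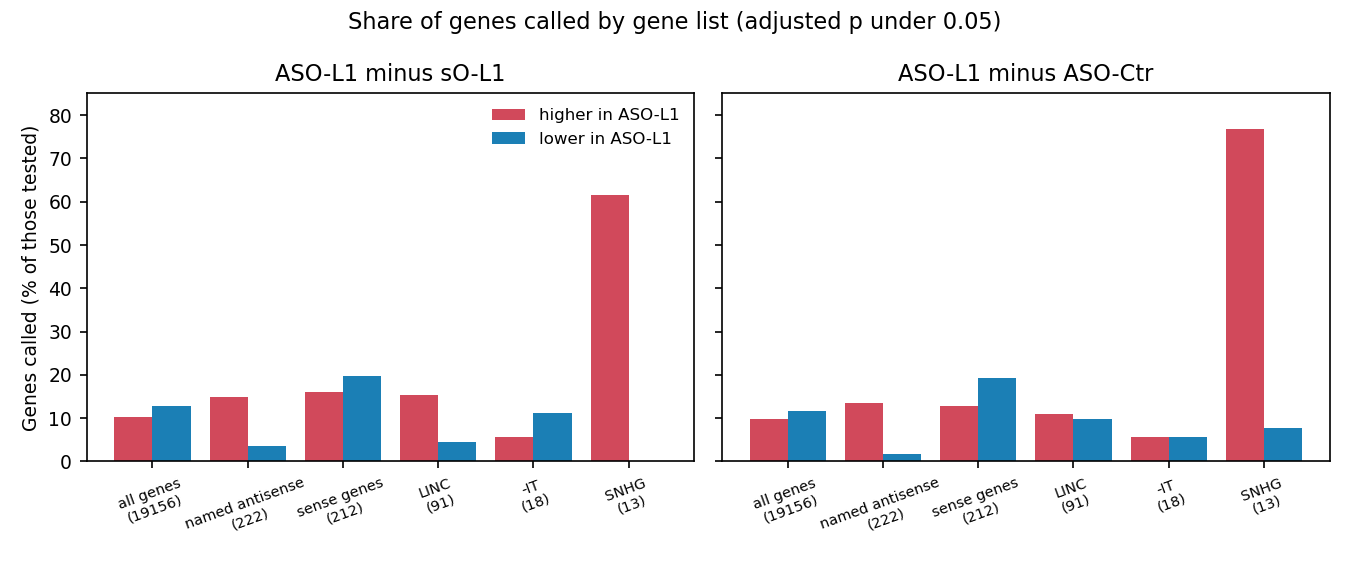
Share of genes called higher or lower (percent, bars from 0) among the antisense RNAs, their sense genes, other non-coding lists and all genes tested, for the comparisons of ASO-L1 with sO-L1 and with ASO-Ctr. Among the antisense RNAs 14.9% were higher and 3.6% lower than in sO-L1, against 10.3% and 12.7% of all genes.

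A count that needs no fit gave the same order. In 57 members (25.7%) both ASO-L1 libraries lay above all 4 other libraries, against 15.2% of all genes tested, and in 17 (7.66%) both lay below, against 15.5%.

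SOX21-AS1 had the smallest p of all members in the comparison with sO-L1. SOX21 encodes a SOX-family transcription factor of the nervous system that opposes SOX2-type activation. SOX21-AS1 was at 2.18 and 2.30 CPM with ASO-Ctr, 2.91 and 1.82 with sO-L1, and 6.84 and 4.53 with ASO-L1. Both ASO-L1 libraries were high, and the 4 others lay close together below them. The rise was 2.43-fold over sO-L1 (log2 fold change 1.28 ± 0.15 SE, edgeR adjusted p = 3.6e-09, and 0.044 without the block) and 1.20 ± 0.16 over ASO-Ctr (adjusted p = 4.6e-08, and 0.044 without the block). SOX21 itself stood at 12.0 and 6.38 CPM with ASO-Ctr, 9.31 and 4.10 with sO-L1, and 26.1 and 17 with ASO-L1. The ASO-L1 libraries were again highest, although replicate 1 was above replicate 2 in all groups. SOX21 rose by 1.76 ± 0.10 over sO-L1 (adjusted p = 1.8e-19, 0.06 without the block) and by 1.27 ± 0.10 over ASO-Ctr (adjusted p = 1.4e-14, 0.13 without the block). Exons of the pair do not overlap in GENCODE release 29. The summed neuroectoderm markers PAX6, SOX1 and NEUROD1 did not move with the rise. They were at 1.69 and 3.42 CPM, without TMM factors, in ASO-L1 and between 1.82 and 4.73 elsewhere.

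FEZF1-AS1 starts beside FEZF1, which encodes a zinc finger repressor of forebrain development. It was at 26.9 and 32.1 CPM with ASO-Ctr, 24.0 and 28.5 with sO-L1, and 34.0 and 38.2 with ASO-L1, so that ASO-L1 lay above the other groups, with a small gap to ASO-Ctr. The rise was 0.46 ± 0.06 over sO-L1 (edgeR adjusted p = 1.1e-07, 0.094 without the block) and 0.29 ± 0.06 over ASO-Ctr (adjusted p = 0.0005, 0.28 without the block). FEZF1 rose over sO-L1 by 0.32 ± 0.05 (adjusted p = 5.9e-06, 0.081 without the block), and stood at 0.04 ± 0.05 against ASO-Ctr (adjusted p = 0.7).

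SETD5-AS1 rose with little spread between replicates. Its present symbol is THUMPD3-AS1, and it starts near SETD5, a gene of the SET-domain family linked to neurodevelopmental disorder. It was at 27.2 and 26.9 CPM with ASO-Ctr, 28.0 and 27.8 with sO-L1, and 38.4 and 38.0 with ASO-L1. The 4 libraries without the LINE1 antisense oligo lay close together, and both ASO-L1 libraries stood well above them. The rise was 1.37-fold over sO-L1 (log2 0.45 ± 0.06, edgeR adjusted p = 9.2e-08, 0.024 without the block) and 1.41-fold over ASO-Ctr (0.50 ± 0.06, adjusted p = 2.3e-08, 0.019 without the block). SETD5 did not rise with it. It was at 238 and 258 CPM with ASO-Ctr, 205 and 242 with sO-L1, and 210 and 234 with ASO-L1, a difference of -0.01 ± 0.05 from sO-L1 (adjusted p = 0.93). Against ASO-Ctr SETD5 fell by 0.16 ± 0.05 (adjusted p = 0.012, 0.46 without the block), a call lost without ASO-Ctr replicate 1 (0.275) or either ASO-L1 library (0.0617 and 0.116).

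MORF4L2-AS1, which starts beside the gene of a chromatin protein of the MRG family, also moved apart from its sense gene. It was at 2.28 and 2.11 CPM with ASO-Ctr, 2.47 and 2.27 with sO-L1, and 4.21 and 4.11 with ASO-L1, with no overlap of the ASO-L1 libraries with the rest. The rise was 0.82 ± 0.15 over sO-L1 (edgeR adjusted p = 3.4e-05, 0.04 without the block) and 0.93 ± 0.16 over ASO-Ctr (adjusted p = 1.1e-05, 0.031 without the block). MORF4L2, at 540 to 642 CPM over the 6 libraries, fell by 0.17 ± 0.05 against sO-L1 (adjusted p = 0.0057). That fall was lost without the block (0.32), on leaving out sO-L1 replicate 1 (0.153) and on leaving out ASO-L1 replicate 1 (0.258). Of the members that rose over sO-L1, SOX21-AS1, SETD5-AS1, MORF4L2-AS1, ZNF674-AS1 and GABPB1-AS1 kept the call in all 14 alternatives run.

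GABPB1-AS1 and ZNF674-AS1 start beside a gene for a subunit of the GA-binding transcription factor and beside a zinc finger gene. GABPB1-AS1 was at 16.8 and 17.2 CPM with ASO-Ctr, 15.5 and 16.3 with sO-L1, and 24.2 and 21.0 with ASO-L1, which was 0.50 ± 0.08 over sO-L1 (edgeR adjusted p = 1.6e-06, 0.042 without the block). ZNF674-AS1 was at 5.89 and 6.91 CPM with ASO-Ctr, 6.28 and 5.63 with sO-L1, and 9.83 and 9.52 with ASO-L1, which was 0.71 ± 0.11 over sO-L1 (adjusted p = 1.1e-06, 0.034 without the block). Both RNAs were highest in both ASO-L1 libraries, and both were also called over ASO-Ctr (0.39 ± 0.08 and 0.55 ± 0.11, adjusted p = 0.00014 for each). The sense genes did not pass the test against sO-L1: GABPB1 differed by 0.11 ± 0.05 (adjusted p = 0.11) and ZNF674 by 0.21 ± 0.11 (adjusted p = 0.17). Against ASO-Ctr both sense genes rose, GABPB1 by 0.30 ± 0.05 (adjusted p = 1.7e-05, 0.097 without the block) and ZNF674 by 0.38 ± 0.11 (0.012, 0.18 without the block). The call of ZNF674 was lost without either ASO-Ctr library (0.061 and 0.118) or ASO-L1 replicate 2 (0.219).

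**Figure D2:**
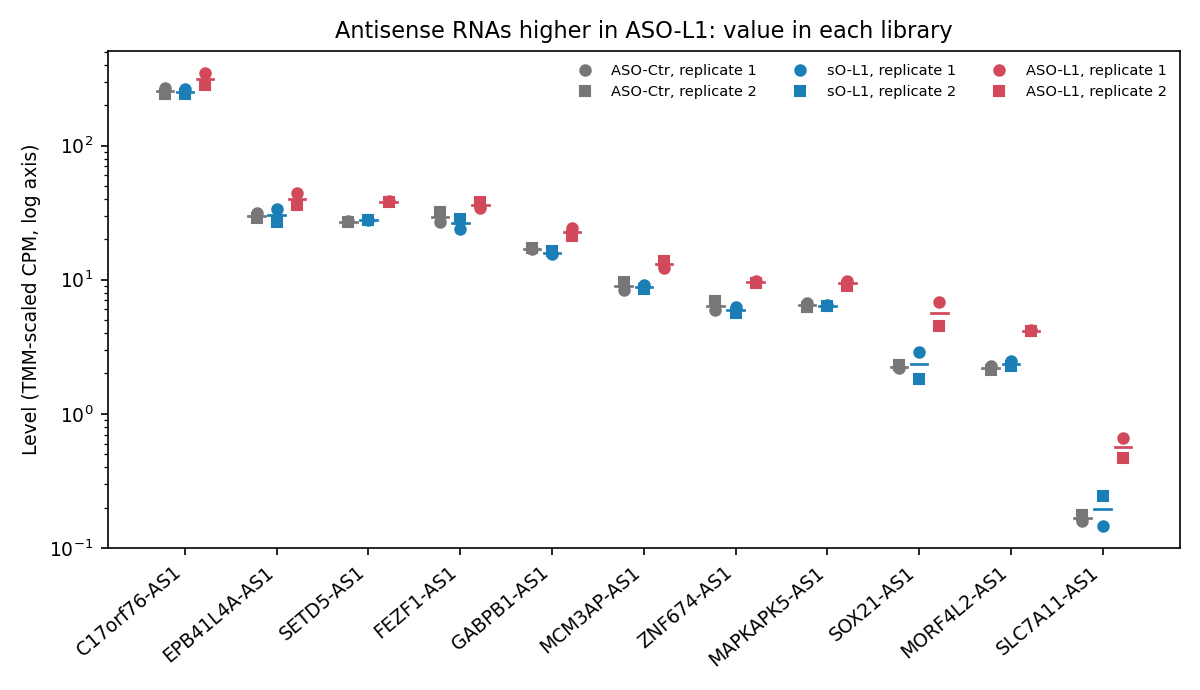
CPM of 11 antisense RNAs that rose in ASO-L1 over sO-L1, in each of the 6 libraries (log axis; 1 point a library, circles for replicate 1 and squares for replicate 2, coloured by group; short lines are group means). For each of the 11 both ASO-L1 points lie above the other 4, as for SETD5-AS1 at 38.4 and 38.0 CPM against 26.9 to 28.0.

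The 3 members that host snoRNAs in GENCODE release 29 were C17orf76-AS1, EPB41L4A-AS1 (SNORA13) and TMEM161B-AS1. C17orf76-AS1 was at 267 and 241 CPM with ASO-Ctr, 262 and 240 with sO-L1, and 345 and 285 with ASO-L1. EPB41L4A-AS1 was at 31.3 and 28.6 CPM, 33.7 and 26.7, and 44.2 and 36.1 in the same order. In both RNAs the ASO-L1 libraries were highest and replicate 1 lay above replicate 2 in each group. C17orf76-AS1 rose by 0.32 ± 0.05 over sO-L1 (edgeR adjusted p = 8.6e-07, 0.15 without the block) and EPB41L4A-AS1 by 0.41 ± 0.06 (8.3e-07, 0.16 without the block). The table has no entry for the sense symbol of C17orf76-AS1, and EPB41L4A differed by -0.15 ± 0.17 (adjusted p = 0.61). TMEM161B-AS1 was at 6.48 to 6.84 CPM outside ASO-L1 and at 7.57 and 7.84 in it, and did not pass the test (0.20 ± 0.10 over sO-L1, adjusted p = 0.17, and 0.23 ± 0.11 over ASO-Ctr, 0.13). The 13 snoRNA host genes of the SNHG series, which are not antisense by name, include several whose spliced RNAs are known to be decayed when translated. Of the 13, 8 (61.5%) rose over sO-L1 and 0 fell, with a median of 0.33. Over all genes 10.3% rose and 12.7% fell. Against ASO-Ctr 10 (76.9%) rose while SNHG14 fell, with a median of 0.31. Over all genes 9.88% rose and 11.6% fell there. Without the block 2 and 3 were called. This list is described and was not tested as a set.

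Other widely studied members varied. MCM3AP-AS1 was at 8.39 and 9.61 CPM with ASO-Ctr, 9.07 and 8.54 with sO-L1, and 12.1 and 13.9 with ASO-L1, and rose by 0.58 ± 0.09 over sO-L1 (edgeR adjusted p = 4.3e-06, 0.059 without the block). MAPKAPK5-AS1 was at 6.74 and 6.21, 6.46 and 6.35, and 9.85 and 8.97 CPM in the same order, and rose by 0.55 ± 0.10 (adjusted p = 6.2e-05, 0.06 without the block). In both RNAs the ASO-L1 libraries were the highest. OIP5-AS1, known as Cyrano and as a regulator of the microRNA miR-7, was the second most abundant of those named here and lay at 198 and 213, 202 and 204, and 186 and 203 CPM. Its difference from sO-L1 was -0.06 ± 0.05 (adjusted p = 0.39). TP73-AS1 (62.0 to 69.2 CPM over the libraries, -0.02 ± 0.05, adjusted p = 0.8) and NOP14-AS1 (15.0 to 18.1 CPM, -0.09 ± 0.08, adjusted p = 0.51) also did not pass. Neither did ZEB1-AS1 (0.54 ± 0.21, adjusted p = 0.057), TTN-AS1 (0.01 ± 0.16, 0.99) or HIF1A-AS1 (0.10 ± 0.32, 0.86).

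The 8 members that fell against sO-L1 were DHRS4-AS1, PTPRG-AS1, UBAC2-AS1, SNAI3-AS1, TMEM254-AS1, SLC25A5-AS1, MAGI2-AS3 and TMPO-AS1. DHRS4-AS1, beside a gene for a retinol-metabolising reductase, was at 14.9 and 14.7 CPM with ASO-Ctr, 15.2 and 14.0 with sO-L1, and 10.4 and 11.9 with ASO-L1. Both ASO-L1 libraries were the lowest. It fell by 0.38 ± 0.09 (edgeR adjusted p = 0.00078, 0.12 without the block, 0.131 without sO-L1 replicate 1, 0.107 without ASO-L1 replicate 1), and against ASO-Ctr by 0.40 ± 0.09 (adjusted p = 0.00058, 0.11 without the block, 0.0502 without ASO-L1 replicate 1). DHRS4 also fell against sO-L1 (log2 fold change -0.26, edgeR adjusted p = 0.034), a call lost in 6 of 14 alternatives. Against ASO-Ctr it differed by -0.04 (adjusted p = 0.85). UBAC2 was called lower than in sO-L1 beside UBAC2-AS1, and of the 14 alternatives only the fit without the block lost that call (0.059). PTPRG-AS1, from the gene of a receptor tyrosine phosphatase, was at 1.86 and 2.38, 2.67 and 2.92, and 1.78 and 1.59 CPM. It fell by 0.74 ± 0.18 against sO-L1 (adjusted p = 0.0012), with the call lost without the block (0.096), on leaving out sO-L1 replicate 2 (0.0809) and on leaving out ASO-L1 replicate 2 (0.132). PTPRG was at 215 and 226, 176 and 205, and 134 and 156 CPM, lowest in ASO-L1, and fell by 0.40 ± 0.05 against sO-L1 (adjusted p = 9.9e-09, 0.081 without the block) and by 0.61 ± 0.05 against ASO-Ctr (8.2e-14, 0.022 without the block). Exons of PTPRG-AS1 and PTPRG overlap by 1207 bases in the annotation, so their reads may be shared. The other 6 fell by 0.24 (MAGI2-AS3) to 0.70 (SLC25A5-AS1), and each lost the call without the block and without at least 2 of the libraries of these groups, as did the fall of PTPRG-AS1. UBAC2-AS1, for example, fell by 0.55 ± 0.15 (adjusted p = 0.0042, 0.17 without the block, 0.233 when sO-L1 replicate 2 was left out, 0.198 when ASO-L1 replicate 2 was).

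The comparison of ASO-L1 with ASO-Ctr sets it against an antisense oligo with no target. It shares the ASO-L1 libraries with the comparison above, so its values are not an independent repeat. Of the 222 members 30 (13.5%) rose and 4 (1.8%) fell, against 9.88% and 11.6% of all genes tested. The median log2 fold change was 0.11, against 0.00 for all genes, and 136 (61.3%) were above 0. It was 0.05 without ASO-L1 replicate 1, and 0.20 when replicate 2 of ASO-Ctr or of ASO-L1 was left out. Of the 29 members at 10 CPM or more, 14 rose, and the share of all genes at that level was not computed. Without the block 3 members remained higher (SETD5-AS1, SOX21-AS1 and MORF4L2-AS1) and 0 lower, and 1.95% of all genes were called. At an unadjusted p under 0.05 that fit held 36 of the 222 members, against 3207 of all 19156 genes. DESeq2 called 17 higher and 1 lower. With each library left out, 21 to 29 were higher. The 4 calls lower became 2 without ASO-Ctr replicate 1 or either sO-L1 library, and leaving out ASO-L1 replicate 1 gave 1.

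The most abundant members called here and not against sO-L1 were FGD5-AS1 and THAP9-AS1. The difference between the comparisons was tested only as sO-L1 against ASO-Ctr, which neither RNA passed with all libraries (adjusted p = 0.34 and 0.072). THAP9-AS1 did pass it without ASO-Ctr replicate 2 (0.0171) and without ASO-L1 replicate 1 or 2 (0.0223 and 0.0218). FGD5-AS1 was at 144 and 152 CPM with ASO-Ctr, 159 and 160 with sO-L1, and 171 and 169 with ASO-L1, in that order with no overlap. It rose by 0.20 ± 0.05 over ASO-Ctr (edgeR adjusted p = 0.0014, 0.17 without the block, 0.0833 without ASO-Ctr replicate 1) and differed from sO-L1 by 0.10 ± 0.05 (adjusted p = 0.15). FGD5, a gene of endothelial cells, went the other way: at 15.9 and 17, 13.3 and 18.1, and 9.67 and 11.1 CPM it fell by 0.64 ± 0.09 against ASO-Ctr (adjusted p = 2.2e-07, 0.064 without the block). THAP9-AS1 was at 36.6 and 40.6, 45.1 and 44.9, and 48.6 and 45.8 CPM, and rose by 0.27 ± 0.06 over ASO-Ctr (adjusted p = 0.00055, 0.13 without the block, 0.0624 without ASO-Ctr replicate 1). The 4 members that fell against ASO-Ctr were DHRS4-AS1, described above, and ATP6V0E2-AS1, RHPN1-AS1 and TMLHE-AS1. Of these, TMLHE-AS1 reached the minimum summed count only through ASO-Ctr, so its fall is not independent of its selection. ATP6V0E2-AS1, beside a gene of the vacuolar proton pump, fell by 0.67 ± 0.22 (adjusted p = 0.023, 0.22 without the block, 0.473 without ASO-Ctr replicate 1, 0.172 without ASO-L1 replicate 1), and ATP6V0E2 fell by 0.87 ± 0.08 (1.4e-11, 0.0063 without the block). TMLHE-AS1 rested on 80 counts in all, 40 of them in ASO-Ctr, and lost its call (adjusted p = 0.049) when any of the 6 libraries was left out. RHPN1-AS1 (adjusted p = 0.039) lost its call without ASO-Ctr replicate 2, either sO-L1 library or ASO-L1 replicate 2, with adjusted p of 0.0755 to 0.745.

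**Figure D3:**
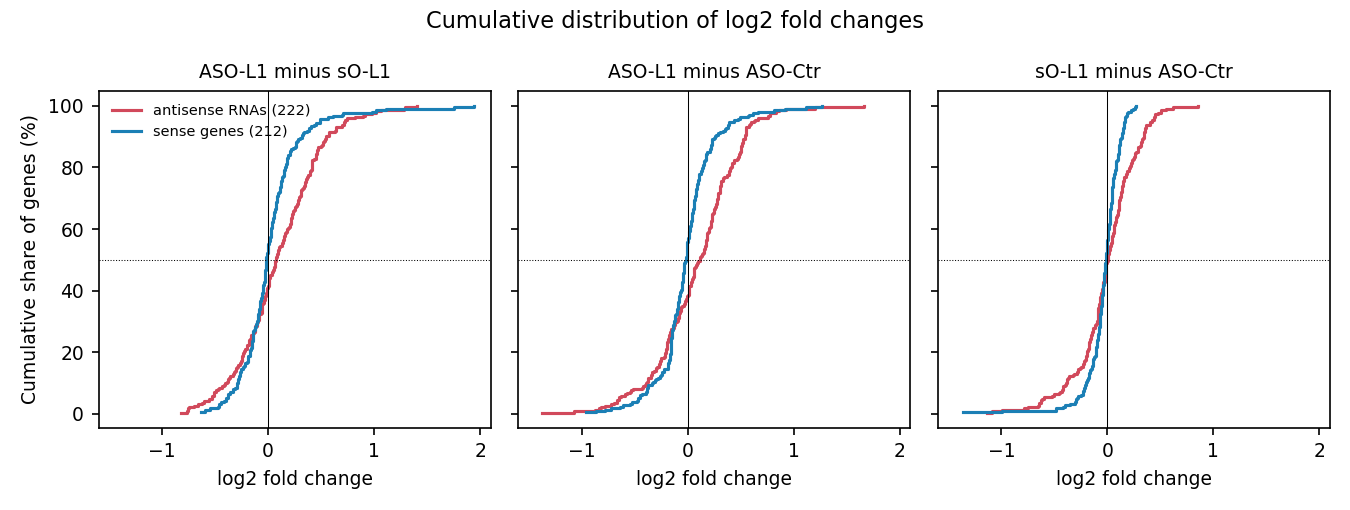
Cumulative share of genes (percent) against log2 fold change for the 222 antisense RNAs and their 212 sense genes, in each of the 3 comparisons (the dotted line marks the median). The curve of the antisense RNAs lies to the right of 0 at its median in the ASO-L1 comparisons (0.07 and 0.11) and at 0.00 in sO-L1 against ASO-Ctr, but with 1 library left out these medians ran from 0.01 to 0.16, from 0.05 to 0.20 and from -0.06 to 0.10.

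The comparison of sO-L1 with ASO-Ctr sets the oligos without antisense sequence to LINE1 side by side. Of the 222 members 0 rose and 1 fell, against 0.658% and 1.06% of all genes tested, and the median log2 fold change was 0.00. It was -0.06 without sO-L1 replicate 2 and 0.10 without ASO-Ctr replicate 2. At an unadjusted p under 0.05, 7 were higher and 8 lower, against 1211 and 1237 of all 19156 genes. DESeq2 called 0 (3 higher and 2 lower unadjusted) and limma-voom 0 (4 and 5). The 1 that fell was RNF144A-AS1, which overlaps a ubiquitin ligase gene: it was at 3.19 and 2.77 CPM with ASO-Ctr, 1.70 and 1.93 with sO-L1, and 1.91 and 2.35 with ASO-L1. ASO-Ctr was the highest group. The fall was 0.65 ± 0.18 (edgeR adjusted p = 0.049), and the call was lost with DESeq2 size factors, without the block (adjusted p = 1), and without ASO-Ctr replicate 1 (0.499), sO-L1 replicate 1 (0.841) or sO-L1 replicate 2 (0.283). Of the 212 sense genes 2 rose and 10 fell in this comparison, among them FEZF1 by 0.29 ± 0.05 (adjusted p = 0.0016, 0.245 with sO-L1 replicate 2 left out) and SOX21 by 0.49 ± 0.11 (0.014, and 0.0548 to 0.506 with ASO-Ctr replicate 1 or either sO-L1 library left out). Neither was called without the block (adjusted p = 1), and both antisense partners did not pass the test (FEZF1-AS1 -0.17 ± 0.07, adjusted p = 0.21, and SOX21-AS1 -0.09 ± 0.18, adjusted p = 0.9).

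The sense genes of the members were set beside them. Of 222 members 221 had the sense symbol in the table, and 215 of those symbols were tested, which are 212 distinct genes because 3 symbols have more than 1 member. Of the sense genes 34 of 212 (16%) rose over sO-L1 and 42 (19.8%) fell, with a median of -0.02, against 10.3% and 12.7% of all genes. Against ASO-Ctr 27 (12.7%) rose and 41 (19.3%) fell, against 9.88% and 11.6% of all genes. In both comparisons more sense genes fell than rose, as among all genes. In the comparison with sO-L1 both genes of a pair were called in the same direction in 16 pairs and in opposite directions in 3 (MORF4L2, TTC28 and ST7). The antisense RNA alone was called in 21 pairs, the sense gene alone in 58 and neither in 117. Across the 215 pairs the fold changes had a Pearson r of 0.4 and a Spearman rho of 0.373, and r was 0.314 in the 213 pairs without SOX21 and SLC7A11. The pair with the largest rise of a sense gene, GDNF (1.95, with GDNF-AS1 at 0.57), stayed in that set. In pairs without exon overlap r was 0.485 (64 pairs), and with it 0.357 (148 pairs). The SOX21 pair was among the 64, and the SLC7A11 and GDNF pairs among the 148. For these classes r without those pairs was not computed. These correlations run across genes that share the 6 libraries, and for pairs with exon overlap perhaps reads, and no test was made of them. Where the antisense RNA rose and the sense gene was tested (32 pairs), the sense gene's median was 0.07, with 11 higher and 3 lower. Where the antisense RNA fell (8 pairs), the sense gene's median was -0.23, with 0 higher and 5 lower. Against ASO-Ctr the counts were 10 pairs in the same direction, 4 opposite (SETD5, MCM3AP, FGD5 and TTC28), 19 with the antisense RNA alone, 55 with the sense gene alone and 127 with neither.

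**Figure D4:**
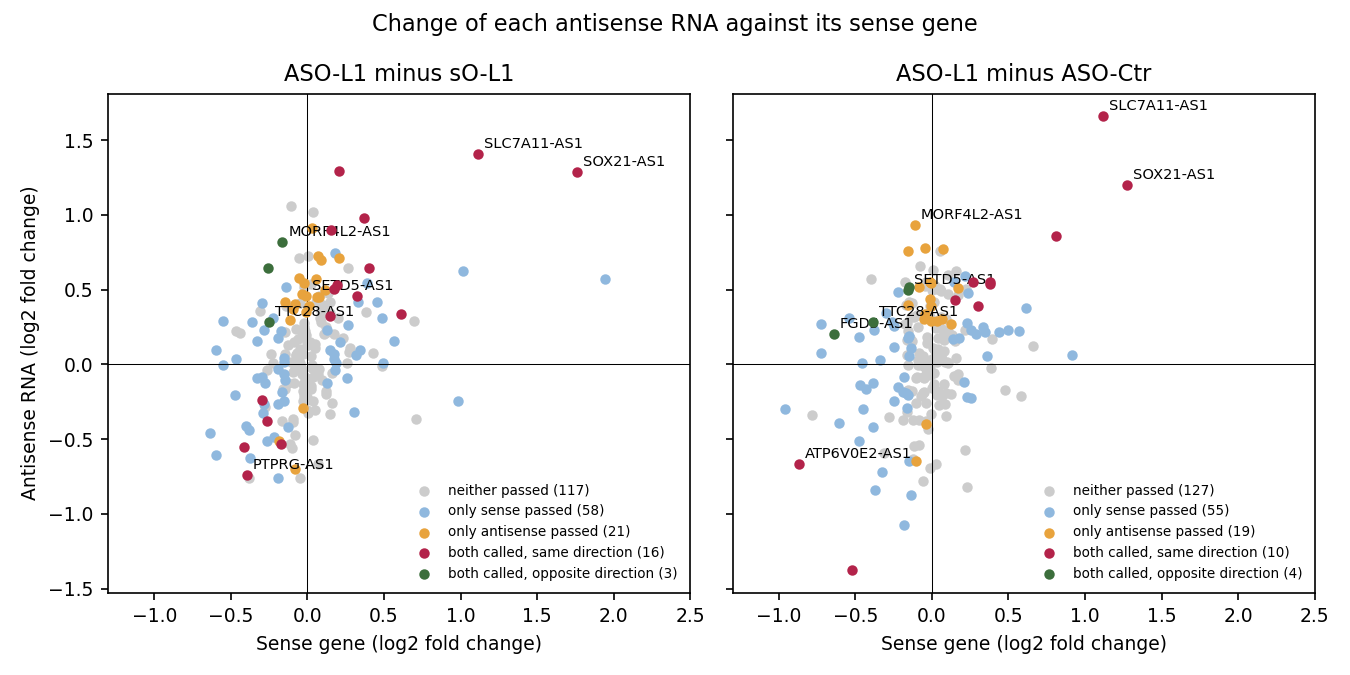
Log2 fold change of each antisense RNA (vertical axis) against that of its sense gene (horizontal axis) for ASO-L1 against sO-L1 and against ASO-Ctr, 1 point a pair, coloured by which genes were called. SOX21 and SLC7A11 stand at the upper right with both genes higher, and most called pairs have only 1 gene called. SLC7A11-AS1 reached the minimum summed count only through ASO-L1, so its place here is not independent of its selection.

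SLC7A11-AS1 had the largest fold change of the members called and few counts. It reached the minimum summed count only through ASO-L1, the group in which it was called higher. Its rank and its call are therefore not independent of how the members were selected. SLC7A11 encodes the cystine importer that feeds glutathione synthesis. It was at 47.2 and 54.3 CPM with ASO-Ctr, 47.6 and 54.7 with sO-L1, and 113 and 108 with ASO-L1, and rose by 1.11 ± 0.06 over sO-L1 (edgeR adjusted p = 3.1e-21, 0.0021 without the block). SLC7A11-AS1 was at 0.159 and 0.175 CPM (3 and 12 counts) in the control libraries, 0.147 and 0.243 CPM (5 and 15 counts) in those of sO-L1, and 0.658 and 0.466 CPM (30 and 27 counts) in those of ASO-L1. Both ASO-L1 libraries were above the rest. It rose by 1.40 ± 0.45 over sO-L1 (adjusted p = 0.019), a call lost without the block (0.13), on leaving out either sO-L1 library (0.354 and 0.0707) and on leaving out ASO-L1 replicate 1 (0.422). Exons of the pair overlap by 865 bases in the annotation, so reads of the abundant sense gene may lie among these counts. MAFG-AS1, beside the gene of a small MAF factor that pairs with NRF2, rose by 0.34 ± 0.12 (adjusted p = 0.043, 0.31 without the block), and MAFG, at 62.9 to 65.5 CPM outside ASO-L1 and 103 and 90.5 in it, rose by 0.61 ± 0.05 (7.5e-13, 0.011 without the block).

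COX10-AS1 and APCDD1L-AS1 and their sense genes, with which they share no exon in the annotation, were all called higher than in sO-L1. COX10, a heme synthesis enzyme of the mitochondrion, rose by 0.19 ± 0.07 over sO-L1 (edgeR adjusted p = 0.031, 0.3 without the block, 0.376 without sO-L1 replicate 1, 0.0939 without sO-L1 replicate 2, 0.347 without ASO-L1 replicate 1). COX10-AS1, at 5.58 to 6.40 CPM outside ASO-L1 and 8.88 and 8.55 in it, rose by 0.53 ± 0.11 (adjusted p = 0.00017, 0.076 without the block). APCDD1L-AS1, at 1.15 to 1.86 CPM outside ASO-L1 and 2.52 and 2.25 in it, rose by 0.98 ± 0.20 (adjusted p = 0.00023, 0.078 without the block, 0.0525 without sO-L1 replicate 1). APCDD1L rose by 0.37 ± 0.11 (0.01, 0.18 without the block), a call that was lost on leaving out any library of these groups (0.0742 to 0.144). Against ASO-Ctr neither sense gene passed: COX10 differed by 0.17 ± 0.07 (adjusted p = 0.073) and APCDD1L by -0.05 ± 0.11 (0.82). APCDD1L fell by 0.41 ± 0.11 in sO-L1 against ASO-Ctr (adjusted p = 0.041, 1 without the block, 0.211 to 0.806 with a library of these groups left out), and its level was lowest in sO-L1.

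TTC28-AS1 and TTC28 went in opposite directions in both comparisons. TTC28-AS1 was at 17.1 and 15.3 CPM with ASO-Ctr, 17.9 and 14.9 with sO-L1, and 21.6 and 18.2 with ASO-L1, which was 0.28 ± 0.07 over sO-L1 (edgeR adjusted p = 0.0042, 0.31 without the block, 0.058 and 0.139 without sO-L1 replicate 1 or 2, 0.0573 without ASO-L1 replicate 1). TTC28, a long gene whose introns hold a well-known active LINE1 copy, was at 32.9 and 35.1, 26.2 and 34.8, and 23.5 and 28.0 CPM. It fell by 0.25 ± 0.07 against sO-L1 (adjusted p = 0.0037, 0.41 without the block, 0.457 without sO-L1 replicate 2) and by 0.39 ± 0.07 against ASO-Ctr (2e-05, 0.18 without the block).

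Several sense genes changed beside an antisense RNA that did not pass the test. DLGAP1, a gene of synaptic scaffolds, was at 13.2 and 11.6 CPM with ASO-Ctr, 10.5 and 11.0 with sO-L1, and 6.23 and 8.31 with ASO-L1, and fell by 0.55 ± 0.10 against sO-L1 (edgeR adjusted p = 5.4e-05, 0.1 without the block). DLGAP1-AS2 lay between 33 and 36.4 CPM in all libraries and differed by -0.01 ± 0.06 (adjusted p = 0.95). The next 2 pairs were chosen after their values were seen. VIM, the intermediate filament vimentin, rose by 0.98 ± 0.05 (1e-21, 0.067 without the block), from 145 to 207 CPM in sO-L1 to 403 and 290 in ASO-L1, and VIM-AS1, which starts 19 bases from it in the annotation, was at or below 1.61 CPM in every library and differed by -0.25 ± 0.22 (adjusted p = 0.48). OTX2, a transcription factor of the primed state and the forebrain, rose by 0.49 ± 0.05 (3.4e-11, 0.15 without the block), and OTX2-AS1, with 63 counts in all, differed by 0.01 ± 0.56, an error too wide to show a change of that size.

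By layout, 22 of the 139 members whose start lay within 1 kb of the sense gene's start rose over sO-L1 (15.8%) and 6 fell (4.32%). Of the 77 that overlapped it with starts farther apart 8 rose (10.4%) and 2 fell (2.6%), against 10.3% and 12.7% of all genes. Of those with exon overlap 20 of 153 rose (13.1%) and 7 fell (4.58%), and of those without 11 of 66 rose (16.7%) and 1 fell (1.52%). Of the 10 members with a TATA match 2 rose and 1 fell, of the 7 with an ARE match 1 rose, and of the 3 with a CRE match 1 fell. No difference between these classes was tested.

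Other long non-coding genes are given as a reference. Of 91 tested LINC genes 14 (15.4%) rose over sO-L1 and 4 (4.4%) fell, with a median of 0.03. The antisense RNAs stood at 14.9% and 3.6%, and all genes at 10.3% and 12.7%. Against ASO-Ctr 10 LINC genes (11%) rose and 9 (9.89%) fell. There the antisense RNAs stood at 13.5% and 1.8%, and all genes at 9.88% and 11.6%. Of 18 sense intronic RNAs (symbols in -IT) 1 (5.56%) rose and 2 (11.1%) fell over sO-L1. A list of well-studied long non-coding RNAs, which includes EPB41L4A-AS1 and OIP5-AS1, had 20 tested. Of these, 11 (55%) rose over sO-L1 and 0 fell, and 9 (45%) rose and 0 fell against ASO-Ctr. NEAT1, the scaffold of nuclear paraspeckles, showed the largest of these changes: it was at 6.74 and 11.6 CPM with ASO-Ctr, 7.25 and 10.2 with sO-L1, and 29.5 and 29.8 with ASO-L1. GAS5, a snoRNA host, was at 218 and 234, 266 and 244, and 376 and 323 CPM. Both ASO-L1 libraries were above the others for both genes. No difference between these lists and the antisense RNAs was tested.

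The authors' deposited comparison table, which sets ASO-L1 against sO-L1, holds 185 of the 222 members. The authors' deposited table gives 28 of these as higher and 7 as lower at its own adjusted p under 0.05, and 181 of the 185 have the same sign there as in the fit used here. It is made from the same libraries.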

How the data were processed

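Poly(A) RNA of 6 libraries was measured, 2 for each of ASO-Ctr, sO-L1 and ASO-L1, grouped from the labels. The submitters' processing notes name Trim Galore 0.4.0, TopHat2 2.0.13, the genome hg19, and featureCounts from Subread 1.5.0. The deposited table used for all tests gives whole-number counts by gene symbol, from which the authors had removed duplicate reads, going by its name. Strand setting and gene annotation are not given in the sources used here. A second table, deposited by the authors, has batch-corrected log2 values and served only as a check. The authors' deposited comparison table holds log2 fold changes, p-values and adjusted p-values of ASO-L1 minus sO-L1, and its direction was settled against the log2 values (correlation 0.996). Its score columns, a moderated t and log odds per the file headers, were not used.

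From the counts (18897936 to 67192937 per library, with 92 spike-in entries left out) genes were filtered with filterByExpr (minimum count 10, total 15) and scaled by TMM. Quasi-likelihood tests were run in edgeR 4.0.16 (R 4.3.3), robust, with group and replicate number in the design and all 6 libraries together (2 residual degrees of freedom per gene, median prior 44.8). P-values were Benjamini-Hochberg adjusted over 19156 genes, and calls were made at an adjusted p under 0.05. Dividing the size of a log2 fold change by the root of its F gave the SE. A replicate block was used since the labels mention a batch-corrected output, although they do not tie a replicate number to any batch. Differences between replicates 1 and 2 correlated between groups (0.224, 0.153 and 0.246). In the deposited log2 table the means of the replicate numbers lay within 0.02 in 82.6% of 16669 genes, against 9.13% in log2 CPM.

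The members, the lists and the tests were chosen with earlier results of these data known. Named were, per comparison, up to 10 called members in each direction by p, the 8 most abundant, those next to the minimum of 60 counts, pairs with both genes called, their sense genes, studied antisense RNAs from a list, and members whose libraries of 1 group lay apart; some members that meet this rule are not reported here. Layout came from GENCODE release 29 (GRCh38), which is not the build of the counts, so no gene coordinates are given from it. Promoters came from RefSeq (147 members matched). Alternatives were DESeq2 1.42.0 (size factors or its test), limma-voom (limma 3.58.1), 2 other filters, no block, the 4 libraries compared, each library left out (the spread of a group then left with 1 library is taken from the rest) and thinning to the shallowest library. Tested on simulated data for ASO-L1 minus sO-L1 with 18773 genes, the fit recovered 83% of 1.5-fold and 98% of 2-fold changes, with 16 unchanged genes called. The changes were placed only in genes averaging at least 1 CPM, and a replicate shift common to all groups was built in. These shares therefore do not cover the 98 members under 1 CPM, nor the case where replicate numbers mark no shared batch.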

Additional observations from a re-analysis of the deposited data

How the results depend on the processing

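Of 195 single results named, those called in the fit used here kept their direction under every alternative. Results not called there were marked as reversed only where an alternative called them in the other direction, and 0 were. Other changes of sign among them were not counted. The replicate block moved most: in the fit with no replicate block 71 results lost their call. The other 124 include results that were not called with the block either, so they are not 124 calls kept. Without the block 5 members were higher and 0 lower in ASO-L1 against sO-L1 (33 and 8 with the block). Against ASO-Ctr 3 were higher and 0 lower (30 and 4), and in sO-L1 against ASO-Ctr 0 were lower (1). The labels do not say that same-numbered libraries belong together. The DESeq2 test called 17 higher and 1 lower in ASO-L1 against sO-L1, 17 and 1 against ASO-Ctr, and 0 in sO-L1 against ASO-Ctr. Limma-voom called 1 lower against ASO-Ctr, and 0 lower in sO-L1 against ASO-Ctr, as did DESeq2 size factors. Without a filter, and with only the 4 libraries compared, 2 were lower against ASO-Ctr. With the 4 libraries, and with thinning, 1 was higher in sO-L1 against ASO-Ctr. Thinning, which lowers depth, gave 22 higher and 5 lower in ASO-L1 against sO-L1. With each library left out the counts ran from 14 to 36 higher and 2 to 8 lower in ASO-L1 against sO-L1, from 21 to 29 higher and 1 to 5 lower against ASO-Ctr, and from 0 to 1 in each direction in sO-L1 against ASO-Ctr. The cause was not tested except for thinning and left-out libraries, where fewer counts or samples enter. Of the 98 members under 1 CPM, where few counts make the errors wide, 4 were called against sO-L1 and 3 against ASO-Ctr, and the part of depth in this was not tested by level.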
